A study of Homo sapiens with 6 samples.

Results

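The hypoxia response and glycolysis genes are a module of 40 genes chosen by name, with earlier results of these data known. They run from oxygen sensing through glucose uptake and the glycolytic enzymes to further targets of the hypoxia-inducible factors (HIF). The deposited tables held 38 of the 40 among 35820 genes, and 35 passed the filter on low counts, out of 13965 genes tested. EGLN1 and PDK3 were not analysed here. Ribosomal RNA-depleted total RNA was sequenced from HT1080 cells, a human fibrosarcoma line, in 3 TOP3B knockout (KO) libraries and 3 wild-type (WT) libraries. The KO cells are the E2-2 line, which the labels describe as made by CRISPR with a guide against exon 2 of TOP3B, and all 3 KO libraries come from this line. WT and KO cells were grown in the same serum-containing medium in a humidified incubator, and the labels name no low-oxygen or drug treatment for either group. TOP3B encodes topoisomerase III-beta, which acts on DNA and RNA, and the study asked how its loss affects R-loops and transcription.

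Cells sense oxygen through prolyl hydroxylases, which mark the HIF alpha subunits HIF1A and EPAS1 for capture by VHL and destruction. When oxygen is low the alpha subunits escape, pair with ARNT and bind short ACGTG or GCGTG elements near genes for glucose uptake, glycolysis, acid export and blood vessel growth. Tumour lines often run this programme at a basal level in normal air, and much of HIF alpha regulation is at the protein, which RNA-seq does not measure.

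Library totals ranged from 18501898 to 20340136 estimated counts in KO cells and from 17919106 to 20475280 in WT cells. KO replicate 3 stood apart. Mitochondrial transcripts made up 10.0%, 8.81% and 5.70% of counts in KO replicates 1 to 3, and 8.23% to 8.51% in WT. The part of this difference in the results below was not tested. Values without KO replicate 3 are therefore given for genes of the module whose call or sign changes. They are also given for some other genes that library moved far. The TOP3B transcript itself had 20.02, 19.3 and 18.5 CPM (counts scaled to a common library size) in KO replicates 1 to 3 and 30.5, 19.1 and 23.1 CPM in WT replicates 1 to 3, and did not pass (log2 fold change -0.33 ± 0.19 SE, edgeR adjusted p = 0.342). Since an edit by CRISPR can stop the protein and leave the RNA in place, this level does not check the labels. The series text names the epithelial line HCT116 once for the WT cells. The mesenchymal gene VIM lay at 11373 to 11712 CPM in KO and 11310 to 12352 CPM in WT, while the mesenchymal gene THY1 had 1 count in WT replicate 1 and 0 elsewhere. Of 10 epithelial markers, KRT20, CDX2 and CDH17 had 0 counts in every library, and VIL1, EPCAM and KRT19 stayed under 1 CPM. The others were present, with KRT8 at 82.4 to 99.9 CPM in KO and 87.7 to 96.4 CPM in WT, KRT18 at 17.3 to 34.8 CPM in KO and 14.4 to 20.4 CPM in WT, LGALS4 at 1.08 to 3.12 CPM in KO and 1.32 to 2.07 CPM in WT, and CDH1 at 1.36 to 2.15 CPM in KO and 1.59 to 2.43 CPM in WT. Of 7 mesenchymal markers tested, 2 (FN1 and SPARC) fell and 0 rose in edgeR, beside 4.63% and 3.21% of all genes tested. Their median log2 fold change was -0.73. At an unadjusted p under 0.05, 4 were lower and 0 higher, beside 12.8% and 11.9% of all genes tested. DESeq2 called 3 of the markers lower and limma-voom 2. None of 4 epithelial markers passed in edgeR (1 was higher at an unadjusted p under 0.05, and DESeq2 and limma-voom called 0).

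Of the 35 genes tested, 7 fell in KO cells and none rose (quasi-likelihood test in edgeR, adjusted p under 0.05 after Benjamini-Hochberg adjustment over 13965 genes). Among all genes tested, 4.63% fell and 3.21% rose, 7.84% together. Because the module was chosen with earlier results of these data known, such counts beside all genes describe it and do not test it. The 7 were CA12 (a cell-surface carbonic anhydrase), ALDOC (aldolase C), HIF1AN (the asparaginyl hydroxylase that restrains HIF), ARNT (the HIF beta subunit), PFKFB4 (a fructose-2,6-bisphosphate enzyme), MXI1 (a MYC antagonist) and KDM3A (a histone demethylase). Their decreases ran from 1.60-fold to 4.28-fold. At an unadjusted p under 0.05, 12 genes of the module were lower and 1, ENO1, was higher, beside 12.8% lower and 11.9% higher among all genes tested. DESeq2 called 9 lower (7.81% of the genes with an adjusted p) and limma-voom 6 (4.89% of all genes tested), each with 0 higher.

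The genes lay on both sides of 0. Their median log2 fold change was -0.14, beside 0.05 over all genes tested, and 22 of 35 genes lay below 0 (46.3% of all genes tested did). The 3 KO libraries were all below the 3 WT libraries in 12 genes (17.1% of all genes tested) and all above them in 2, ENO1 and TPI1 (16.5% of all genes tested). In the other 21 the groups overlapped. By role, the medians were -0.61 for the 5 oxygen sensing genes, -0.30 for the 3 transporters, 0.07 for the 16 glycolytic enzymes, -0.13 for the 3 regulators and -0.04 for the 7 other HIF targets. The enzyme median changed sign under limma-voom (-0.01) and without KO replicate 3 (-0.24). The median of the other HIF targets was 0.16 without KO replicate 2, 0.023 and 0.0091 without WT replicates 1 and 3, 0.046 with pseudogene counts added, 0.0048 with library size alone and 0.00094 with no filter on low counts, and -0.25 without KO replicate 3, so it has no settled sign. Scaling by library size alone raised the median of all genes to 0.11.

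**Figure D1:**
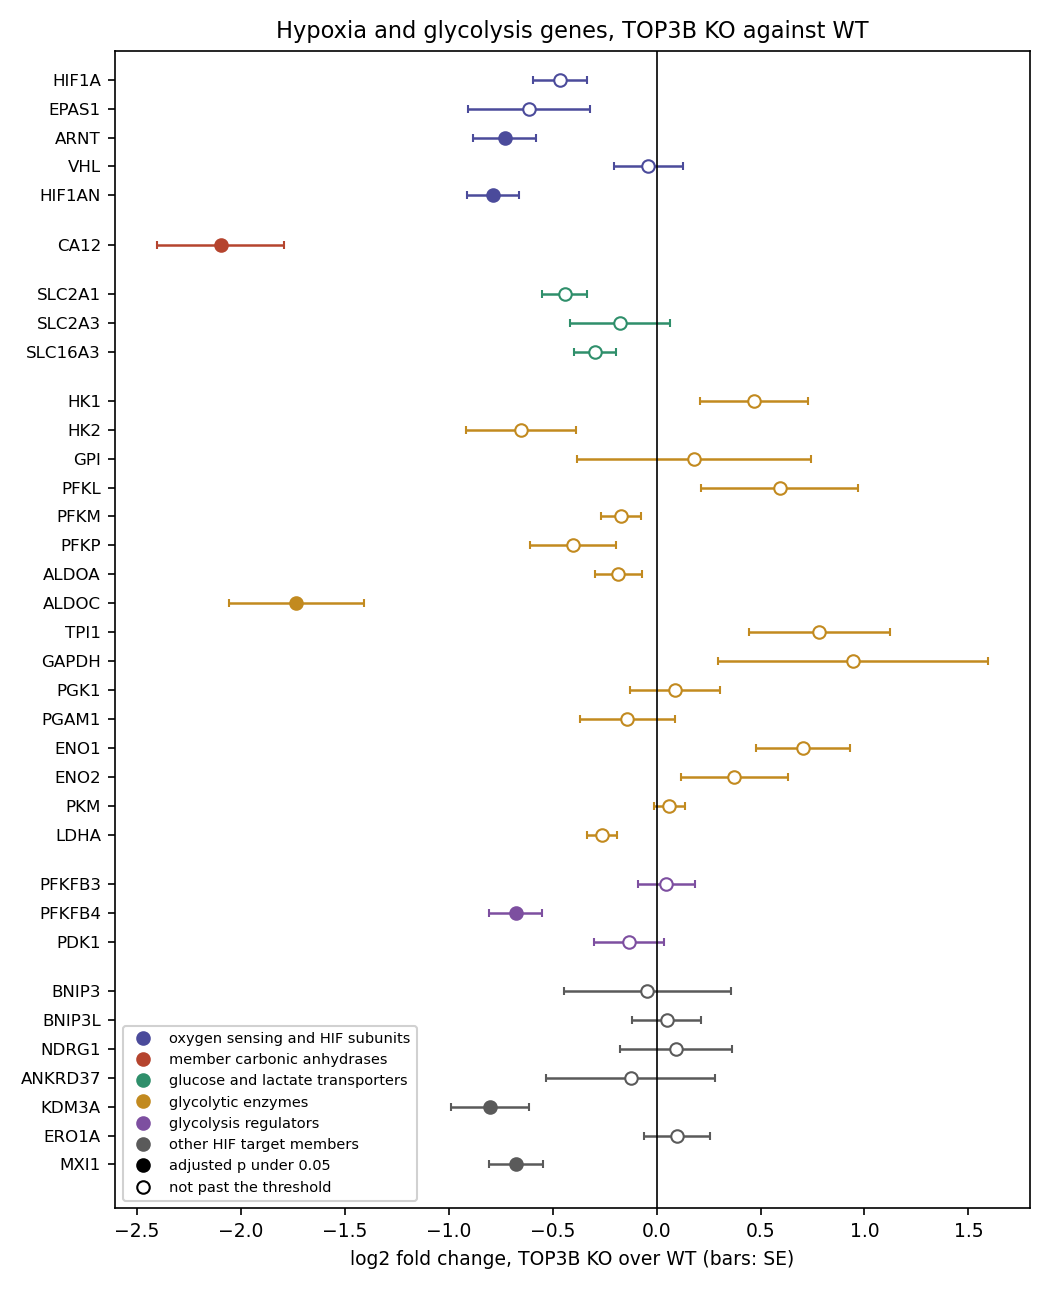
Log2 fold change (TOP3B KO over WT, x axis) of the 35 tested genes, down the page by role, with bars of 1 SE; filled points passed an adjusted p of 0.05 in edgeR and open points did not. The 7 filled points all lie left of 0, with CA12 at -2.10 and ALDOC at -1.73 farthest, while the glycolytic enzymes spread to both sides and GAPDH has a long bar at 0.95.

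Leaving out a library changed the count of calls. Without KO replicate 3, 10 genes fell and 1 rose (7.84% and 5.39% of 14358 genes tested, 13.2% together), and the median was -0.26, beside 0.01 over all genes. The 10 were CA12, ALDOC, HIF1AN, ARNT, PFKFB4, MXI1, EPAS1, SLC2A1, LDHA and PFKM, and the 1 was ENO1. Without KO replicate 1 only CA12 was called of 36 genes tested (2.71% of all genes tested were called). Without KO replicate 2, CA12 and ALDOC were called of 36 (2.5% of all). Without WT replicate 1, 2 or 3, edgeR called none (1.94%, 1.55% and 1.78% of all), with 10, 11 and 11 genes lower and 1, 1 and 0 higher at an unadjusted p under 0.05. Whether the replicates were separate cultures is not stated in the labels, so the spread behind every p-value may be technical. All 3 KO libraries come from 1 edited line, so each p-value compares that line with WT. Differences particular to that line and the loss of TOP3B cannot be told apart here.

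**Figure D2:**
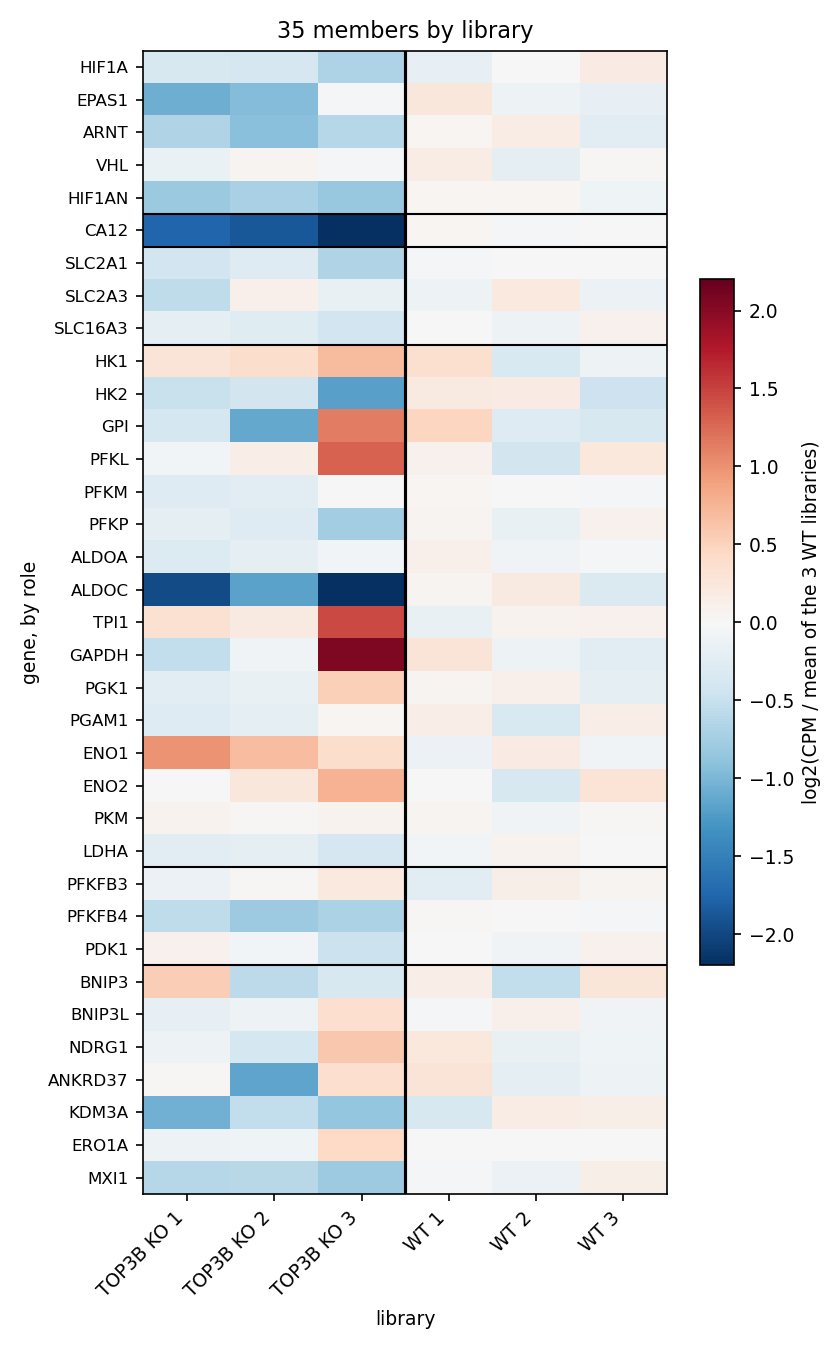
Level of each of the 35 tested genes (rows, by role) in each library (columns, TOP3B KO then WT), as log2 of its CPM over the mean of the 3 WT libraries; blue is lower, red is higher, and values past the ends of the scale take the end colour. CA12 and ALDOC are dark blue in all 3 KO libraries, and GAPDH, TPI1, PFKL and GPI are red in KO replicate 3.

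The promoters of 6 of these genes are shown because the data bear on HIF targets. CA12, ALDOC, PFKFB4 and KDM3A fell, and LDHA and GAPDH were the most abundant enzymes by RPKM and did not pass. ARNT, HIF1AN and MXI1 also fell, and their windows are not shown. Each is a RefSeq window of GRCh38.p14 from 250 bases before to 50 bases after an annotated start, 5′ to 3′ on the gene's strand. Capitals mark the letters ACGTG or GCGTG on either strand (CACGT or CACGC when read on the other), and CACGTG holds a match on both strands. KDM3A and LDHA had 2 windows each in the table and the first is shown.
CA12, chr15:63381797-63382096, minus strand: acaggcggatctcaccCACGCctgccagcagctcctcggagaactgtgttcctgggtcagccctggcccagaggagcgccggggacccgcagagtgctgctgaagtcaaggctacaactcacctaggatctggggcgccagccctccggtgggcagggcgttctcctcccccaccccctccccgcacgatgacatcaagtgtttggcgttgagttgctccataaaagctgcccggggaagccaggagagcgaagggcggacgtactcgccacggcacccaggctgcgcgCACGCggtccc
ALDOC, chr17:28576846-28577145, minus strand: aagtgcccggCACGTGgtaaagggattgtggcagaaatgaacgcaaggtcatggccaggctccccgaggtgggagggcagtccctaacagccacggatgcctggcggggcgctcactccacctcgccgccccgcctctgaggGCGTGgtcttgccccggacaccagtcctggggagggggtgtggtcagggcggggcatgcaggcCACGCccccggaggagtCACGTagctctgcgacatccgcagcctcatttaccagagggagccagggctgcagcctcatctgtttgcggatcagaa
PFKFB4, chr3:48556754-48557053, minus strand: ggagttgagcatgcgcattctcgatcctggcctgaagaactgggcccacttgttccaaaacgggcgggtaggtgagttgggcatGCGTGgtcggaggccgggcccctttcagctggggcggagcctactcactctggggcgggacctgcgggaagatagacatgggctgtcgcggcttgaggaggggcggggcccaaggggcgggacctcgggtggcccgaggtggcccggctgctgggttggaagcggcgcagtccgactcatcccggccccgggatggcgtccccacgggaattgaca
KDM3A, chr2:86441121-86441420, plus strand: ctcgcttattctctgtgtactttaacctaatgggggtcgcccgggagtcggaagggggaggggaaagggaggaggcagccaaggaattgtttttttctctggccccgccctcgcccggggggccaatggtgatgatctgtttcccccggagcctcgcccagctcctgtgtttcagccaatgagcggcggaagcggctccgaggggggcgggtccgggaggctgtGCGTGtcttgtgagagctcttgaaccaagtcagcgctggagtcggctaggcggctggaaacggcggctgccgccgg
LDHA, chr11:18394313-18394612, plus strand: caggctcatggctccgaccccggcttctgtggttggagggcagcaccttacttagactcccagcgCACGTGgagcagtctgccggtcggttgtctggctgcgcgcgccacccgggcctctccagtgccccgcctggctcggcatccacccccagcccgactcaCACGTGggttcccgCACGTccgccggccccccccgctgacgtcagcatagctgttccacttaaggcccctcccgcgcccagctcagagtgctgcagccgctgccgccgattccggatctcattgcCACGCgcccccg
GAPDH, chr12:6535014-6535313, plus strand: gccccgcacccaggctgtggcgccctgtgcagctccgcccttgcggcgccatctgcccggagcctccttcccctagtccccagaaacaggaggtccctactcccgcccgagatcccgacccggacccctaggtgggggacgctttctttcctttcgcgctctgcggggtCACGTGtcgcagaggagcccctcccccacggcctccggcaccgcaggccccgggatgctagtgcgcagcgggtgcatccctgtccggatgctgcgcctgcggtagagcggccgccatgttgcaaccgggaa
CA12 had 2 matches, ALDOC 5, PFKFB4 1, KDM3A 1, LDHA 6 and GAPDH 2. Of the 40 genes, 36 matched the table, with 66 windows, and 44 of these (66.7%) held at least 1 match, beside 48.4% of all 35116 windows. A match was present for 5 of the 7 genes that fell and for 23 of 24 tested genes with a window that did not pass. Each fallen gene shown held a match, so the fallen genes without one are among ARNT, HIF1AN and MXI1. A match describes letters in a window and is not a measured binding site.

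Among the oxygen sensing genes, ARNT and HIF1AN fell. ARNT (chromosome 1, 150809705 to 150876768, minus strand, GRCh38) is a partner with which both HIF alpha subunits bind DNA. It had 27.5, 23.3 and 28.3 CPM in KO replicates 1 to 3 and 45.05, 48.8 and 37.4 CPM in WT replicates 1 to 3. The KO values sat close together, and the highest of them lay below the lowest WT value. The means were 26.4 ± 2.71 CPM in KO and 43.7 ± 5.81 CPM in WT (SD, n = 3 each), a 1.66-fold decrease (log2 fold change -0.73 ± 0.15 SE, edgeR adjusted p = 0.0354). ARNT passed without KO replicate 3 (edgeR adjusted p = 0.0251). It did not pass without KO replicate 1, KO replicate 2 or WT replicate 1, 2 or 3 (0.0715 to 0.138).

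HIF1AN (chromosome 10, 100529072 to 100559998, plus strand), also called FIH, hydroxylates an asparagine in HIF alpha and so blocks its coactivators. It had 18.2, 19.4 and 17.9 CPM in KO replicates 1 to 3 and 32.8, 33.0 and 29.9 CPM in WT replicates 1 to 3. Both groups were tight and did not overlap. The means were 18.5 ± 0.829 CPM in KO and 31.9 ± 1.73 CPM in WT (SD, n = 3 each), a 1.72-fold decrease (log2 fold change -0.79 ± 0.12 SE, edgeR adjusted p = 0.0155). HIF1AN passed without KO replicate 3 (edgeR adjusted p = 0.012) and did not pass without KO replicate 1, KO replicate 2 or any single WT replicate (0.0576 to 0.0823). It overlaps NDUFB8 on the opposite strand by 929 bases, whose counts were 140 to 144 in KO and 131 to 159 in WT. Genes of chromosome 10, which also carries MXI1, had a median log2 fold change of -0.18.

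HIF1A, the oxygen-regulated alpha subunit and the most abundant gene of this role by RPKM, had 625, 619 and 499 CPM in KO replicates 1 to 3 and 706, 794 and 905 CPM in WT replicates 1 to 3. All KO values lay below all WT values, with KO replicate 3 the lowest. The means were 581 ± 70.9 CPM in KO and 802 ± 99.9 CPM in WT (SD, n = 3 each). HIF1A missed the threshold in edgeR (log2 fold change -0.46 ± 0.13 SE, adjusted p = 0.0788) and was called by DESeq2.

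EPAS1, the second alpha subunit (HIF-2 alpha), had 28.7, 31.1 and 58.7 CPM in KO replicates 1 to 3 and 72.0, 56.0 and 53.4 CPM in WT replicates 1 to 3. KO replicate 3 lay within the WT range, and KO replicates 1 and 2 lay below it. EPAS1 did not pass with all 6 libraries (log2 fold change -0.61 ± 0.29 SE, edgeR adjusted p = 0.252) and passed without KO replicate 3 (-1.02, adjusted p = 0.0128). VHL, the ubiquitin ligase subunit that captures hydroxylated HIF alpha, lay at 12.5 to 14.4 CPM in KO and 12.1 to 15.5 CPM in WT (log2 fold change -0.04, edgeR adjusted p = 0.907). EGLN3, a prolyl hydroxylase that HIF induces, was too low to test, with 8 to 18 counts in KO and 6 to 14 in WT.

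EPAS1 made up 6.51 ± 3.40% of the summed HIF alpha RPKM in KO and 7.09 ± 1.89% in WT (SD, n = 3 each; exact permutation test, two-sided p = 0.8). The smallest p that 3 against 3 libraries allow is 0.1. The deposited RPKM follow the genomic span of a gene's transcripts (within 5% for 25 of 37 genes of the module), so RPKM levels compare genes per kilobase of genomic span.

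The 2 carbonic anhydrases of the module act on the pH at the cell surface by hydrating carbon dioxide. CA12 (chromosome 15, 63321378 to 63382161, minus strand) had 35.9, 33.0 and 15.3 CPM in KO replicates 1 to 3 and 124, 117 and 119 CPM in WT replicates 1 to 3. The WT libraries were nearly equal, every KO library was far below them, and KO replicate 3 was the lowest. The means were 28.1 ± 11.1 CPM in KO and 120 ± 3.5 CPM in WT (SD, n = 3 each), the largest decrease of the module at 4.28-fold (log2 fold change -2.10 ± 0.31 SE, edgeR adjusted p = 0.0120). CA12 passed with each KO library left out (edgeR adjusted p = 0.0347, 0.0451 and 0.000558 without KO replicates 1, 2 and 3). It did not pass without WT replicate 1, 2 or 3 (0.0553, 0.0608 and 0.0555), although its log2 fold change stayed between -1.81 and -2.32 in all 6 of these fits. CA9, the other carbonic anhydrase of the module and a standard hypoxia marker, had 0 counts in all 6 libraries. A count of 0 allows up to 0.148 to 0.154 CPM in KO and 0.148 to 0.171 CPM in WT, taking 3 counts per library and counting error only. In bulk RNA, fewer cells with a transcript and less of it per cell cannot be told apart.

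The transporters bring glucose in and carry lactate out, and none of the 3 passed. SLC2A1 (GLUT1), the main glucose carrier here, had 373, 412 and 316 CPM in KO replicates 1 to 3 and 487, 504 and 504 CPM in WT replicates 1 to 3. The WT libraries were nearly equal and all KO libraries lay below them. The means were 367 ± 48.1 CPM in KO and 498 ± 9.77 CPM in WT (SD, n = 3 each), which missed the threshold (log2 fold change -0.44 ± 0.11 SE, edgeR adjusted p = 0.0552). SLC2A1 passed without KO replicate 3 (-0.35, edgeR adjusted p = 0.0154), and DESeq2 called it.

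SLC16A3 (MCT4), the lactate exporter, lay at 114 to 132 CPM in KO and 141 to 163 CPM in WT, with no overlap (log2 fold change -0.30 ± 0.10 SE, edgeR adjusted p = 0.131). It overlaps CSNK1D on the opposite strand by 22107 bases, and no source used here gives the strand setting of the counting. SLC2A3 (GLUT3) was low, at 5.36 to 8.51 CPM in KO and 7.18 to 9.13 CPM in WT (log2 fold change -0.18, edgeR adjusted p = 0.687), and its processed pseudogenes took 76.7% of the reads of gene and pseudogenes together, so its level is uncertain. For the 3 transporters, 2 were lower at an unadjusted p under 0.05, and limma-voom called 0 and DESeq2 1.

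The 16 glycolytic enzymes went in both directions, 7 below 0 and 9 above, and only ALDOC passed. ALDOC (chromosome 17, 28573115 to 28577264, minus strand), the aldolase isoform best known from brain, had 4.43, 7.65 and 3.48 CPM in KO replicates 1 to 3 and 18.1, 19.8 and 13.9 CPM in WT replicates 1 to 3. The highest KO value was well under the lowest WT value. The means were 5.19 ± 2.19 CPM in KO and 17.3 ± 3.03 CPM in WT (SD, n = 3 each), a 3.33-fold decrease (log2 fold change -1.73 ± 0.33 SE, edgeR adjusted p = 0.0261). ALDOC passed without KO replicate 2 (edgeR adjusted p = 0.0278) or KO replicate 3 (0.0235). It did not pass without KO replicate 1 (0.0867) or without WT replicate 1, 2 or 3 (0.0917, 0.104 and 0.0711).

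ALDOA, the major aldolase of the same step, lay at 60.5 to 71.1 CPM in KO and 70.6 to 80.4 CPM in WT (log2 fold change -0.18, edgeR adjusted p = 0.363). ALDOC was 9.53%, 14.6% and 6.54% of the summed aldolase RPKM in KO replicates 1 to 3 and 24.5%, 28.8% and 21.7% in WT replicates 1 to 3. Its share was thus lower in every KO library than in any WT library (10.2 ± 4.06% in KO and 25.02 ± 3.57% in WT, SD, n = 3 each; exact permutation test, two-sided p = 0.1, the smallest the design allows).

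**Figure D3:**
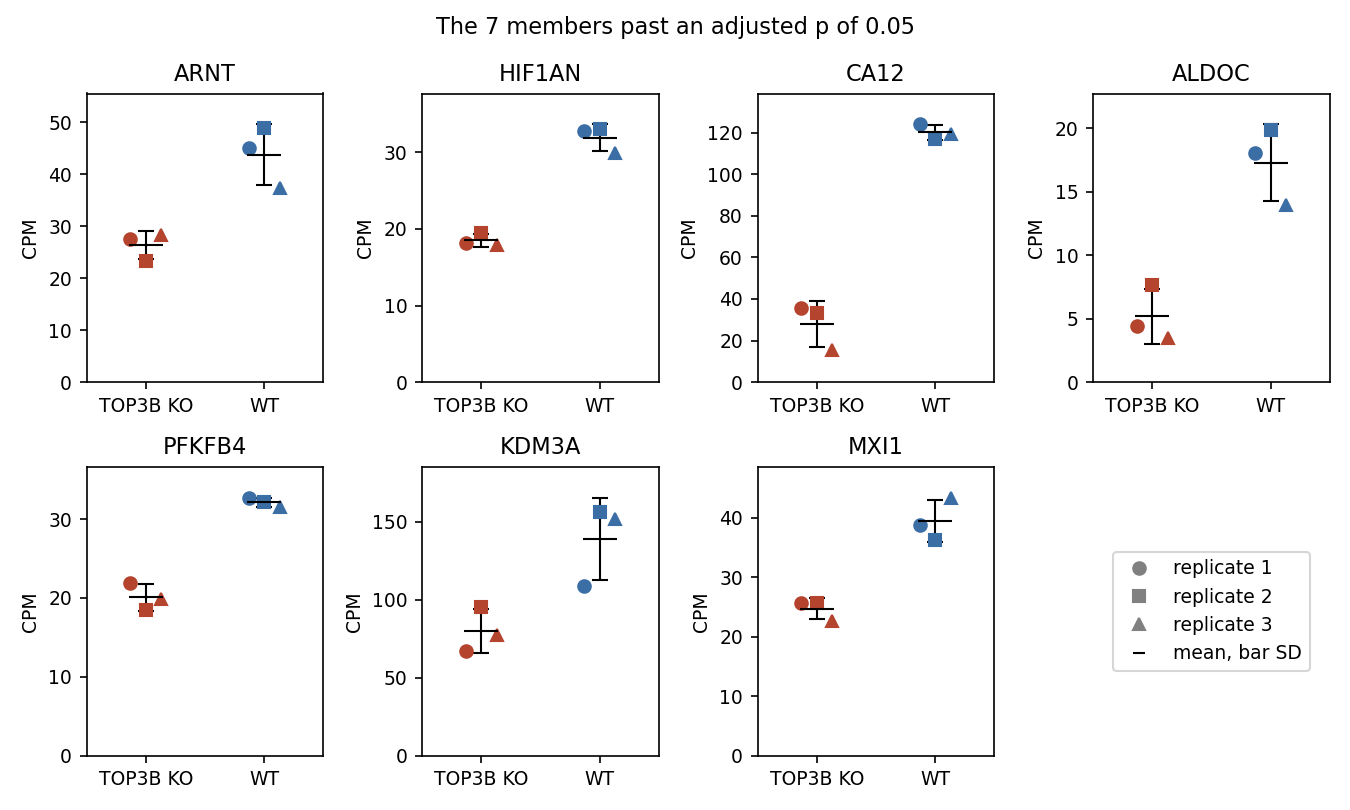
CPM (y axes, from 0) of the 7 genes past an adjusted p of 0.05 in the 3 TOP3B KO libraries (red, left) and the 3 WT libraries (blue, right), with the mean and SD in black. In every panel the 3 KO libraries lie below the 3 WT libraries. As a ratio of the means, the difference is largest for CA12 (28.1 against 120 CPM) and ALDOC (5.19 against 17.3 CPM).

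LDHA, which turns pyruvate into lactate, had the highest RPKM of the module (324 ± 9.99 in KO and 374 ± 14.0 in WT, SD, n = 3 each). It had 2840, 2920 and 2603 CPM in KO replicates 1 to 3 and 3213, 3513 and 3306 CPM in WT replicates 1 to 3. All KO libraries lay below all WT libraries. LDHA missed the threshold (log2 fold change -0.26 ± 0.07 SE, edgeR adjusted p = 0.0789) and passed without KO replicate 3 (-0.22, adjusted p = 0.0277). Its promoter window above held 6 matches to the HIF letters and that of ALDOC held 5.

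GAPDH, the glyceraldehyde-3-phosphate dehydrogenase often used as a loading control, had 161, 220 and 965 CPM in KO replicates 1 to 3 and 285, 215 and 198 CPM in WT replicates 1 to 3. KO replicate 3 was far above the other 5 libraries, while KO replicate 2 lay within the WT range and KO replicate 1 below it. The log2 fold change was 0.95 ± 0.65 SE with all libraries (edgeR adjusted p = 0.415) and -0.30 without KO replicate 3 (adjusted p = 0.370). Pseudogenes held 1.65% of the counts of GAPDH and its pseudogenes, and 0.417% in KO replicate 3.

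Other enzymes shared this high value in KO replicate 3. TPI1, triose-phosphate isomerase, had 48.3, 44.2 and 105 CPM in KO replicates 1 to 3 and 34.1, 40.2 and 40.7 CPM in WT replicates 1 to 3. All KO libraries were above all WT libraries, narrowly so for KO replicates 1 and 2 (log2 fold change 0.78 ± 0.34 SE, edgeR adjusted p = 0.210; 0.26, adjusted p = 0.215, without KO replicate 3). GPI, glucose-6-phosphate isomerase, had 20.3, 12.1 and 57.8 CPM in KO replicates 1 to 3, against 20.8 to 37.0 CPM in WT (log2 fold change 0.18 ± 0.56 SE, edgeR adjusted p = 0.868; -0.72 without KO replicate 3). PFKL, the liver-type phosphofructokinase, had 30.9, 35.8 and 79.2 CPM in KO replicates 1 to 3, against 24.4 to 37.9 CPM in WT (log2 fold change 0.59 ± 0.38 SE, edgeR adjusted p = 0.381; 0.04 without KO replicate 3). KO replicates 1 and 2 lay below the WT range in GPI and within it in PFKL.

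PGK1, phosphoglycerate kinase, had 147, 153 and 248 CPM in KO replicates 1 to 3, against 150 to 187 CPM in WT (log2 fold change 0.09, edgeR adjusted p = 0.833; -0.21 without KO replicate 3). ENO2, the neuronal-type enolase, lay at 20.3 to 34.7 CPM in KO and 15.9 to 25.04 CPM in WT (log2 fold change 0.37, edgeR adjusted p = 0.412; 0.12 without KO replicate 3). KO replicate 3 was the highest library in 12 of the 35 genes (29.1% of all genes tested) and the lowest in 11 (27.6%). The genes it was lowest in include CA12, ALDOC, HIF1A, HK2 and LDHA, so that library was extreme in both directions. GAPDH, TPI1 and ENO2 lie close together on the plus strand of chromosome 12 (GAPDH 6533927 to 6538374, TPI1 6867119 to 6870948, ENO2 6913745 to 6923698), a point seen after their values. GPI, PFKL and PGK1, also highest in KO replicate 3, lie on chromosomes 19, 21 and X. SPSB2, which overlaps TPI1 on the opposite strand, had 23, 43 and 36 counts in KO replicates 1 to 3 and 66, 97 and 88 in WT replicates 1 to 3. A part of position in these values was not tested.

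**Figure D4:**
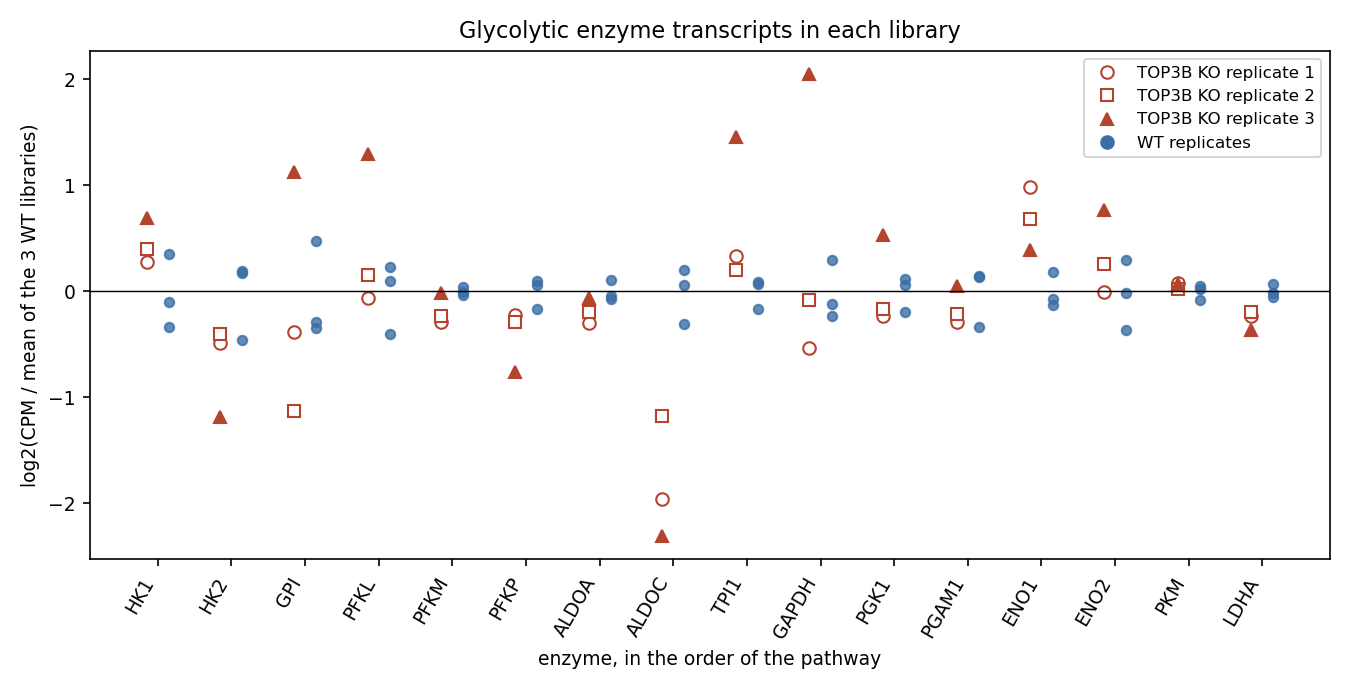
Log2 of CPM over the WT mean (y axis) for the 16 glycolytic enzymes in pathway order (x axis), with TOP3B KO replicates 1 and 2 as open red symbols, KO replicate 3 as filled red triangles and the 3 WT libraries in blue. KO replicate 3 is high at GPI, PFKL, TPI1 and GAPDH (965 CPM, against 161 and 220 CPM in KO replicates 1 and 2), while all 3 KO libraries are low at ALDOC.

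Summed over the 16 enzymes, the transcripts came to 4097, 4240 and 4965 CPM in KO replicates 1 to 3 and 4740, 4888 and 4656 CPM in WT replicates 1 to 3. KO replicates 1 and 2 lay below and KO replicate 3 above all WT libraries. LDHA alone was 69.3%, 68.9% and 52.4% of the sum in KO replicates 1 to 3 and 67.8%, 71.9% and 71.0% in WT replicates 1 to 3. Without LDHA and GAPDH the sums were 1097, 1101 and 1397 CPM in KO and 1241, 1160 and 1152 CPM in WT, so KO replicate 3 remained the highest.

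ENO1, the widely expressed enolase, had 12.0, 9.72 and 7.93 CPM in KO replicates 1 to 3 and 5.52, 6.90 and 5.76 CPM in WT replicates 1 to 3. All KO libraries were above all WT libraries, and KO replicate 3 was the lowest of the KO libraries. ENO1 missed the threshold (log2 fold change 0.71 ± 0.23 SE, edgeR adjusted p = 0.114) and passed without KO replicate 3 (0.83, adjusted p = 0.0456). Its level is uncertain, with 97 to 244 counts per library and 31.2% of the counts of gene and pseudogenes assigned to the pseudogenes. The pseudogenes took 58.8% in KO replicate 3.

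The first committed steps showed no enzyme past the test. HK2, the inducible hexokinase that HIF and growth signals raise, had 33.9, 35.9 and 20.8 CPM in KO replicates 1 to 3 and 54.2, 53.7 and 34.6 CPM in WT replicates 1 to 3 (log2 fold change -0.65 ± 0.26 SE, edgeR adjusted p = 0.190). The groups overlapped through WT replicate 3 alone. HK1, the housekeeping hexokinase, was low at 5.90 to 7.88 CPM in KO and 3.85 to 6.21 CPM in WT (log2 fold change 0.47, edgeR adjusted p = 0.320). HK1 made up 9.24%, 9.40% and 18.1% of the summed hexokinase RPKM in KO replicates 1 to 3 and 6.25%, 4.004% and 7.09% in WT replicates 1 to 3. Its share was higher in every KO library (12.2 ± 5.04% in KO and 5.78 ± 1.60% in WT, SD, n = 3 each, exact permutation test, two-sided p = 0.1, the smallest the design allows). By counts, which are not divided by span, the HK1 share was 19.1 ± 7.20% in KO and 9.51 ± 2.53% in WT (SD, n = 3 each).

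PFKM, the muscle-type phosphofructokinase, held most of the phosphofructokinase RPKM (76.2 ± 6.88% in KO and 83.1 ± 3.01% in WT, SD, n = 3 each; exact permutation test, two-sided p = 0.2). It lay at 243 to 294 CPM in KO and 289 to 306 CPM in WT (log2 fold change -0.17, edgeR adjusted p = 0.320; -0.27, adjusted p = 0.0292, without KO replicate 3). PFKP, the platelet type, lay at 6.75 to 9.84 CPM in KO and 10.2 to 12.2 CPM in WT (log2 fold change -0.40, edgeR adjusted p = 0.285). PGAM1, phosphoglycerate mutase, lay at 5.56 to 7.01 CPM in KO and 5.37 to 7.48 CPM in WT (log2 fold change -0.14, edgeR adjusted p = 0.736), and its 13 pseudogenes took 60.3% of the shared sum, so it is uncertain. PKM, pyruvate kinase, lay at 438 to 455 CPM in KO and 406 to 447 CPM in WT (log2 fold change 0.06 ± 0.07 SE, edgeR adjusted p = 0.651), and its groups overlapped.

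**Figure D5:**
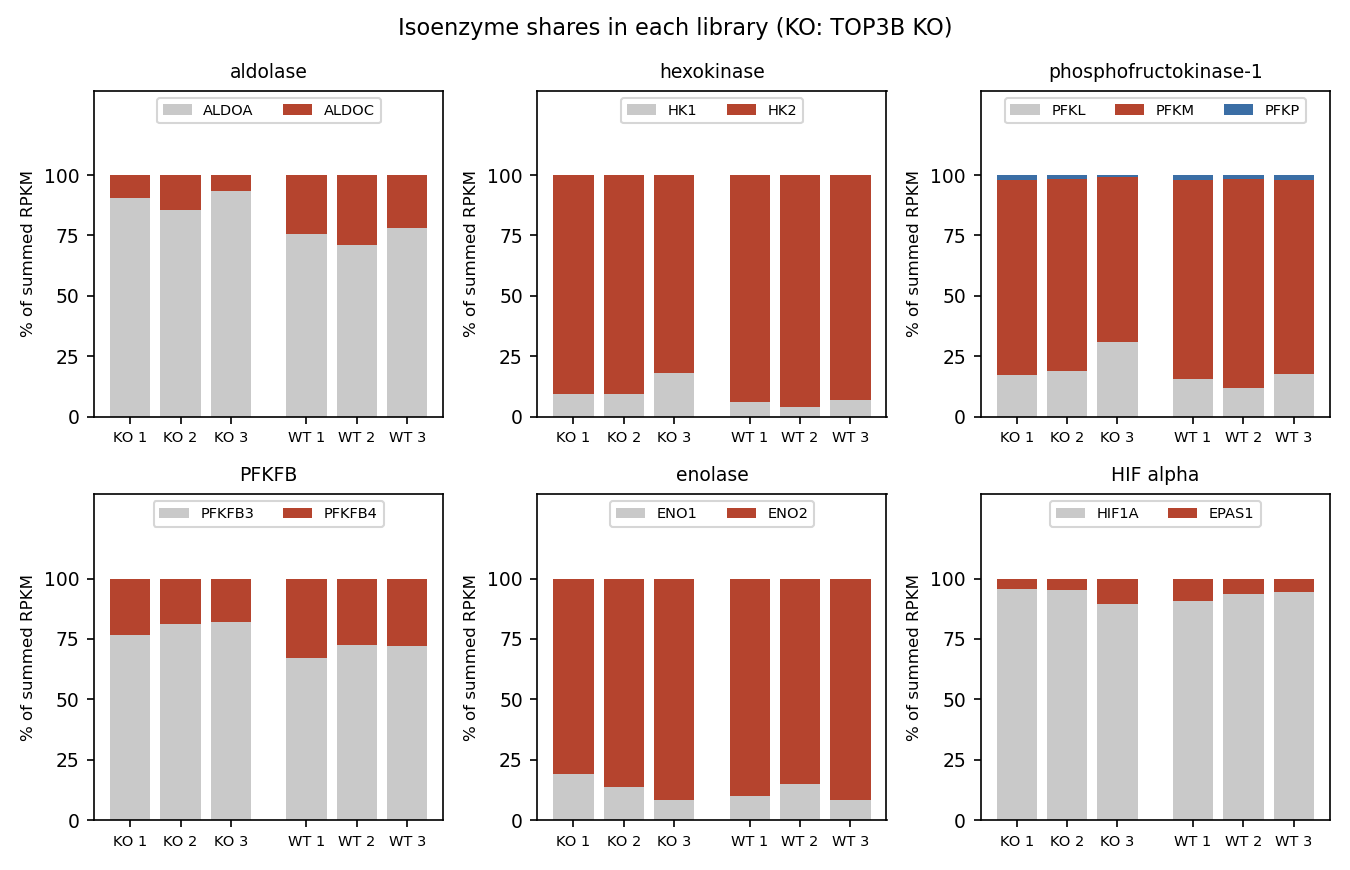
Share of each isoenzyme in the summed deposited RPKM of its family (y axes, percent) in each library (TOP3B KO 1 to 3, then WT 1 to 3). The ALDOC share is 6.54% to 14.6% in KO and 21.7% to 28.8% in WT, and the PFKFB4 share is likewise lower in all 3 KO libraries, while the ENO1 and EPAS1 shares overlap between groups.

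Among the regulators, PFKFB4 fell. PFKFB4 (chromosome 3, 48517684 to 48562015, minus strand) makes and removes fructose-2,6-bisphosphate, the activator of phosphofructokinase, and is a HIF target. It had 21.9, 18.5 and 19.9 CPM in KO replicates 1 to 3 and 32.7, 32.1 and 31.6 CPM in WT replicates 1 to 3. The WT libraries were nearly equal, and every KO library was lower. The means were 20.1 ± 1.71 CPM in KO and 32.1 ± 0.554 CPM in WT (SD, n = 3 each), a 1.60-fold decrease (log2 fold change -0.68 ± 0.13 SE, edgeR adjusted p = 0.0256). PFKFB4 passed without KO replicate 3 (edgeR adjusted p = 0.0206) and did not pass without KO replicate 1, KO replicate 2 or any single WT replicate (0.0611 to 0.107).

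PFKFB3, the paralogue with the stronger kinase activity, had the highest RPKM of the regulators. It had 127, 142 and 162 CPM in KO replicates 1 to 3 and 119, 152 and 145 CPM in WT replicates 1 to 3, which overlap (log2 fold change 0.05, edgeR adjusted p = 0.858). Without KO replicate 3 the log2 fold change of PFKFB3 was -0.057. PFKFB4 was 23.5%, 18.9% and 18% of the summed RPKM of the pair in KO replicates 1 to 3 and 32.9%, 27.4% and 27.9% in WT replicates 1 to 3. The PFKFB4 share did not overlap between groups (20.1 ± 2.98% in KO and 29.4 ± 3.06% in WT, SD, n = 3 each; exact permutation test, two-sided p = 0.1, the smallest the design allows). PDK1, a kinase that inhibits pyruvate dehydrogenase in the mitochondrion, lay at 30.8 to 45.6 CPM in KO and 40.7 to 45.5 CPM in WT (log2 fold change -0.13, edgeR adjusted p = 0.664). Its log2 fold change was 0.0052 without KO replicate 3.

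Of the 7 other HIF targets tested, KDM3A and MXI1 fell. MXI1 (chromosome 10, 110207605 to 110287365, plus strand), which opposes MYC, had 25.7, 25.7 and 22.7 CPM in KO replicates 1 to 3 and 38.8, 36.3 and 43.3 CPM in WT replicates 1 to 3. The groups did not overlap. The means were 24.7 ± 1.72 CPM in KO and 39.5 ± 3.57 CPM in WT (SD, n = 3 each), a 1.60-fold decrease (log2 fold change -0.68 ± 0.13 SE, edgeR adjusted p = 0.0289). MXI1 passed without KO replicate 3 (edgeR adjusted p = 0.0243) and did not pass without KO replicate 1, KO replicate 2 or any single WT replicate (0.0802 to 0.113).

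KDM3A (chromosome 2, 86440647 to 86492716, plus strand), which removes methyl groups from histone H3 lysine 9, had 67.0, 95.2 and 77.2 CPM in KO replicates 1 to 3 and 109, 156 and 152 CPM in WT replicates 1 to 3. WT replicate 1 was the lowest of its group and still above all KO libraries. The means were 79.8 ± 14.2 CPM in KO and 139 ± 26.2 CPM in WT (SD, n = 3 each), a 1.74-fold decrease (log2 fold change -0.80 ± 0.19 SE, edgeR adjusted p = 0.0496). This call stood at the threshold. It was lost with any 1 of the 6 libraries left out (edgeR adjusted p = 0.13, 0.0692 and 0.0627 without KO replicates 1, 2 and 3, and 0.0571, 0.17 and 0.164 without WT replicates 1, 2 and 3).

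The remaining targets did not pass. ERO1A, an endoplasmic reticulum oxidase and the highest of this role by RPKM, had 159, 161 and 233 CPM in KO replicates 1 to 3 and 173, 171 and 172 CPM in WT replicates 1 to 3. KO replicate 3 was above and KO replicates 1 and 2 below the tightly grouped WT libraries (log2 fold change 0.10, edgeR adjusted p = 0.740; -0.12 without KO replicate 3). The mitophagy receptor BNIP3L lay at 74.3 to 109 CPM in KO and 80.2 to 91.5 CPM in WT, and NDRG1, a stress-induced growth suppressor, at 23.5 to 46.2 CPM in KO and 27.2 to 35.8 CPM in WT. In both, KO replicate 3 was the highest of the 6 libraries. The log2 fold changes of BNIP3L and NDRG1 were 0.049 and 0.093 with all libraries, and -0.15 and -0.25 without KO replicate 3. ANKRD37 lay at 2.06 to 5.94 CPM in KO and 3.95 to 5.58 CPM in WT. It overlaps UFSP2 on the opposite strand by 1089 bases. UFSP2 was the more abundant, with 236 to 313 counts in KO and 380 to 457 in WT, against 41 to 116 and 78 to 98 for ANKRD37. BNIP3, the paralogue of BNIP3L, lay at 1.96 to 4.28 CPM in KO and 2.03 to 3.54 CPM in WT, and is uncertain since 44 pseudogenes took 58.6% of the shared sum. Its log2 fold change was -0.044 with all libraries and 0.078 without KO replicate 3. ADM, the vasodilator adrenomedullin, had 3 counts in KO replicate 2 and 0 in the other 5 libraries.

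Further genes of the pathway, outside the 40, were read from the same fit. Their lists too were chosen with earlier results of these data known, so their counts are descriptions. Of 31 other HIF targets tested, 6 fell and 0 rose in edgeR (4.63% and 3.21% of all genes tested), with a median log2 fold change of -0.06. DESeq2 called 7 lower and 1 higher, limma-voom 6 and 0, and at an unadjusted p under 0.05 edgeR had 7 lower and 1 higher (12.8% and 11.9% of all genes tested). Without KO replicate 3, 6 fell and 1 rose (AK4, adenylate kinase 4, named after its values were seen) and the median was -0.24. With any other library left out, DDIT4 and VEGFA alone were called. VEGFA, the main angiogenic factor (chromosome 6, 43770184 to 43786487, plus strand), had 188, 184 and 180 CPM in KO replicates 1 to 3 and 415, 408 and 500 CPM in WT replicates 1 to 3. The KO libraries were nearly equal, at less than the lowest WT library by a wide margin (2.40-fold lower, log2 fold change -1.26 ± 0.10 SE, edgeR adjusted p = 0.00229). Genes of chromosome 6 had a median log2 fold change of -0.27.

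DDIT4 (REDD1), which restrains mTORC1 under hypoxia, had 9.94, 11.6 and 10.8 CPM in KO replicates 1 to 3 and 30.0, 28.3 and 25.6 CPM in WT replicates 1 to 3. Neither group spread far and they did not overlap (2.59-fold lower, log2 fold change -1.37 ± 0.14 SE, edgeR adjusted p = 0.00493). DDIT4 lies on chromosome 10, as do HIF1AN and MXI1, where the median log2 fold change was -0.18. DDIT4 and VEGFA passed in all 6 fits with a library left out. LOX, lysyl oxidase, had 29.6, 28.9 and 20.4 CPM in KO replicates 1 to 3 and 58.8, 45.2 and 54.3 CPM in WT replicates 1 to 3 (2.01-fold lower, log2 fold change -1.004 ± 0.19 SE, edgeR adjusted p = 0.0257). LOX passed without KO replicate 3 (0.0148) and not without KO replicate 1, KO replicate 2 or any single WT replicate (edgeR adjusted p = 0.0586 to 0.0982).

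Of 17 genes for the fate of pyruvate and lactate, 1 fell and 0 rose in edgeR, as in DESeq2 and limma-voom, and 2 were lower and 0 higher at an unadjusted p under 0.05. These counts are near the shares of all genes tested that were lower, 4.63% and 12.8%. The list median was 0.09, and -0.088 without KO replicate 3. PDP1, the phosphatase that reactivates pyruvate dehydrogenase, had 160, 158 and 119 CPM in KO replicates 1 to 3 and 259, 277 and 295 CPM in WT replicates 1 to 3. All KO libraries lay below all WT libraries (1.90-fold lower, log2 fold change -0.93 ± 0.13 SE, edgeR adjusted p = 0.0120). PDP1 did not pass without WT replicate 2 (edgeR adjusted p = 0.0643) or WT replicate 3 (0.06) and passed in the other 4 such fits.

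No gene passed in edgeR among 11 other oxygen sensing genes, 8 other glycolysis genes, 6 other sugar transporters, 3 other carbonic anhydrases and 7 pentose phosphate genes, with medians of 0.01, 0.08, 0.86, -0.15 and -0.11. All but the glycolysis median changed sign in some setting. That of the sugar transporters, several of them low, was 0.046 on log2(RPKM + 1). With more genes tested, it was -0.015 in DESeq2 and -0.0027 with no filter on low counts. With the filter of 1 CPM in 3 libraries, the oxygen sensing median was -0.10 and that of the carbonic anhydrases 0.087. The pentose phosphate median was 0.0096 with no filter. At an unadjusted p under 0.05, 2 oxygen sensing genes were higher and 1 lower, 2 glycolysis genes were higher and 2 lower, and 2 sugar transporters were higher, with 0 in the last 2 lists. DESeq2 called 2 oxygen sensing genes and 1 glycolysis gene higher, and limma-voom called none in these lists. Other edgeR fits called a few genes, named after their values were seen. TIGAR, a fructose-2,6-bisphosphatase, was higher with library size alone, with upper quartile scaling, with the filter of 1 CPM in 3 libraries and without KO replicate 3. Without KO replicate 3, the elongin gene ELOB (log2 fold change -0.55) and the lactate dehydrogenase gene LDHB (-0.19) were also lower and the transketolase gene TKT (0.21) higher, and the median of the carbonic anhydrases was 0.10.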

How the data were processed

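The authors deposited estimated counts and RPKM values for each gene in each library. Salmon 1.10.1 and hg19 are listed in the submitters' processing notes without their roles. The kit is directional per the labels, which give no strand setting for the counting. The deposited counts were whole numbers already and entered edgeR 4.0.16 (R 4.3.3) with filterByExpr, TMM scaling and the quasi-likelihood F test on all 6 libraries, with Benjamini-Hochberg adjustment over 13965 genes, a threshold of 0.05 and 4 residual degrees of freedom. Fold changes are KO over WT, CPM use TMM-scaled totals, and the SE comes from the F statistic. The script was tested on simulated data, drawn with dispersions fitted by edgeR. There DESeq2 made more false calls than edgeR or limma-voom, so a call by DESeq2 alone is weaker. DESeq2 also recovered more of the changes placed in those data. A gene that edgeR did not call may therefore still differ. One entry named differently in the 2 tables was left out. Gene positions are from GENCODE v29 (GRCh38), promoters from RefSeq GRCh38.p14.

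The 40 genes and the pathway lists were chosen with earlier results of these data known. All 40 are named. Those past the threshold and the highest by RPKM in each role are given per library, and of each other list at most 3 called genes per direction with the largest change. KO replicate numbers follow the order of deposition, so no pairs were formed. Alternatives were DESeq2 1.42.0, limma-voom and limma-trend on log2 RPKM (limma 3.58.1, pseudocount 1 or 0.1), other scalings and filters, pseudogene counts added, and each library left out.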

Additional observations from a re-analysis of the deposited data

How the results depend on the processing

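The 7 calls became 3 in limma-trend on log2(RPKM + 1) and 4 on log2(RPKM + 0.1), all lower, and lay between 0 and 11 with a library left out (0 to 10 lower, 0 to 1 higher). The other alternatives gave 6 to 9. The count over all genes was 1095, against 2064 in DESeq2 and 223 to 1899 with a library left out. Of 112 values of the 7 genes, 69 kept direction and call, 43 lost the call and 0 changed sign. Of 448 values of the 28 others, 414 kept both, 8 gained a call and 26 changed sign. With a library left out, the log2 fold changes of the genes that changed sign ranged from -0.13 to 0.036 for VHL, -0.72 to 0.56 for GPI, -0.30 to 1.35 for GAPDH, -0.21 to 0.22 for PGK1, -0.063 to 0.13 for PFKFB3 and -0.26 to 0.0052 for PDK1. They ranged from -0.46 to 0.16 for BNIP3, -0.15 to 0.15 for BNIP3L, -0.25 to 0.28 for NDRG1, -0.46 to 0.20 for ANKRD37 and -0.12 to 0.19 for ERO1A. VHL gave 0.011 on log2(RPKM + 1), 0.020 on log2(RPKM + 0.1) and 0.017 with library size alone. GPI gave -0.071 in limma-voom and -0.0055 on log2(RPKM + 0.1), and BNIP3 gave 0.0048 with library size alone. With pseudogene counts added, BNIP3 gave 0.27 and PGAM1 0.091. The cause was not tested, beyond fewer libraries where one was left out. No paired analysis was possible because the labels give the KO libraries no replicate numbers. Isoenzyme shares differed in size by counts but kept their direction. The mean shares of counts in KO and WT were 7.35% and 18.8% for ALDOC, 19.1% and 9.51% for HK1, and 12.4% and 19.0% for PFKFB4. They were 82.6% and 87.2% for PFKM, 28.1% and 23.5% for ENO1, and 6.57% and 7.14% for EPAS1. Low counts limit ADM, CA9, EGLN3, BNIP3, HK1, ANKRD37, PGAM1, SLC2A3 and ENO1. The called gene ALDOC was low too, with 90, 152 and 68 counts in KO replicates 1 to 3 and 317, 391 and 283 in WT replicates 1 to 3.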
